A study of Mus musculus with 6 samples.

Results

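The proteasome is the barrel-shaped protease that degrades ubiquitin-tagged proteins, and 48 of its subunit and helper genes were read in microglia sorted from mouse optic nerve. They were chosen by symbol alone (Psma to Psmg followed by a number), which matched 50 of the 37447 rows of the deposited table. Psmb9 and Psmd14 each have a second row, and the row with the higher mean was used, which leaves 48 genes. All 6 libraries came from 3-month-old C57BL/6 mice carrying Nf1 flox/mut, 1 floxed and 1 mutant allele of the gene of neurofibromatosis type 1. The 2 FM libraries had these alleles only, FM 1 labelled male and FM 2 female. The 4 FMC libraries carried GFAP-Cre in addition, a recombinase driven by a promoter active in astroglial cells, and FMC 1 and FMC 4 are labelled female and FMC 2 and FMC 3 male. FMC and FM therefore share the mutant allele and differ by the Cre transgene, in a study of microglia of Nf1 optic glioma. The labels call the libraries biological replicates without saying whether nerves were pooled, so p-values measure the spread between these libraries.

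The core particle (20S) is a stack of rings in which outer alpha subunits gate the pore and inner beta subunits line the chamber. Only Psmb5, Psmb6 and Psmb7 encode catalytic beta subunits in most cells, with chymotrypsin-like, caspase-like and trypsin-like activity. Interferon gamma induces Psmb8, Psmb9 and Psmb10, whose products replace those of Psmb5, Psmb6 and Psmb7 in newly built particles to form the immunoproteasome, and Psme1 and Psme2, which encode the cap PA28. Peptides cut by this form suit the binding grooves of MHC class I molecules. The regulatory particle (19S) has a base with ATPases that unfold substrates and a lid that removes ubiquitin. Cells of the immune lineages are known to express immunoproteasome subunits without added interferon.

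Promoter stretches are shown to set the immune genes beside the constitutive genes they replace. RefSeq windows (build GRCm38.p6, 250 bases before to 50 after each start) were found for 40 of the 48 genes. They were searched on both strands for an interferon-stimulated response element (GAAA, any 2 bases, GAAA), a gamma-activated sequence (TTCNNNGAA), an antioxidant response element as bound by Nfe2l1 (TGACNNNGC) and a CCAAT box (CCAAT). Capitals mark the match, and none of the printed matches overlaps another of these motifs.
Psmb8 (chr17:34198073-34198132, plus strand, gamma-activated sequence starting 97 bases before the start): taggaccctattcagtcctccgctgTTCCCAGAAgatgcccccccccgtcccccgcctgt
Psme1 (chr14:55578493-55578522, plus strand, response element read on the other strand, from transcribed base 10): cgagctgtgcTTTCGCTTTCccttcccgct
Psmb5 (chr14:54618008-54618067, minus strand, antioxidant element starting 47 bases before the start): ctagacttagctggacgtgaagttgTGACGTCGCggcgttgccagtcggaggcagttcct
Psmb6 (chr11:70525297-70525356, plus strand, antioxidant element starting 9 bases before the start): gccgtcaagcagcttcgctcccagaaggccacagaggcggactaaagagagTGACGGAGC
Psmb9 and Tap1, which are transcribed away from each other, share the 225 bases between their starts (chr17:34187331-34187555, strand of Tap1, with its only CCAAT box in capitals): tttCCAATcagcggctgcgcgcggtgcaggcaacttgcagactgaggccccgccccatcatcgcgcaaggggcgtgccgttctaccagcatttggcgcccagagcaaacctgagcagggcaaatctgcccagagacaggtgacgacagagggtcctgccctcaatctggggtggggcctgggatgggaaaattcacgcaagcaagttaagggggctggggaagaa

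The response element was present in 5 of the 40 windows (12.5%), against 3.99% of the promoters of 27025 genes. The 5 were Psme1, Psmb3, Psmd4, Psmd9 and Psmg4, so 1 of them is an immune gene. The gamma-activated sequence was in 3 windows (7.5%), those of Psmb8, Psmd2 and Psmg1, against 9.55% of all. The antioxidant element was in 6 (15.0%), against 14% of all. The 6 were Psmb5, Psmb6, Psmc6, Psmd12, Psmd9 and Psme4, and no window was found for Psmb7. None of the 5 immune genes had this element, but they are too few to set against 14%. The CCAAT box was in 14 (35%), against 41.1% of all, with Psmb9 the 1 immune gene. A match describes letters in a window and does not show a binding site.

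Values are FPKM, fragments scaled by transcript length and library total. Levels of different genes are set side by side on this scale as an approximation. Reads may be split between 2 rows of a gene (Psmb9) or with a pseudogene (Psme2). The summed FPKM per library ran from 420285 to 674799, no fragment counts were used, and precision rests on the spread between libraries (median residual SD 0.84 on the log2 scale). Pearson's r between libraries across 18208 genes was 0.686 within FM, 0.668 to 0.757 within FMC and 0.667 to 0.758 between groups. All 12 microglial markers checked were present in every library, with a summed level of 3194 to 6272 FPKM, and 0 of the 12 had a positive difference (median -0.22, log2). The FM sums of 12 T cell markers were 44.3 and 43.6 FPKM and the FMC sums 285, 96.3, 92.2 and 48.6 FPKM, with a positive difference in 11 of the 12. For 8 B cell markers the FM sums were 39.8 and 121 FPKM and the FMC sums 24.5 to 130.3 FPKM. The 5 border macrophage markers summed to 316 and 398 FPKM in FM against 178 to 189.6 FPKM in FMC, where F13a1 lacks a value in FMC 1 and FMC 4. Of the 4 tested none had a positive difference, against 43.5% of all genes tested. Every FMC value of Mrc1 and Pf4 was below FM, which held for 8.22% of all genes. Among the other tested markers this was also so for the microglial Fcrls, the neutrophil Retnlg and the dendritic Cd209a. Every FMC value was above FM for Lck, Cd5, Cd79a and Ly6g, which held for 4.34% of all genes. The 5 monocyte markers summed to 36.4 and 31.4 FPKM in FM and 39.1 to 52.6 FPKM in FMC, and the sums of NK, dendritic, neutrophil, astrocyte and oligodendrocyte markers overlapped. Lymphocytes also make the immunoproteasome, and fewer or more such cells cannot be told apart from a change in RNA per cell in a bulk library. The Cre transgene acts in GFAP-expressing cells, and no value here checks the deletion of Nf1.

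FMC was compared with FM in the fit across the 18208 genes that reached 1 FPKM in 2 or more libraries (limma on log2(FPKM + 1), Benjamini-Hochberg adjustment). This included 47 of the 48 proteasome genes. None of the 47 rose or fell at an adjusted p under 0.05 (smallest adjusted p = 0.993), where 0.0275% of all genes were called. At an unadjusted p under 0.05 the count was also 0 of 47, against 5.34% of all genes tested. The 4 tested immune genes all had positive differences, with a median of 0.30 (log2), while 12 of 14 constitutive 20S genes and 13 of 17 19S genes had negative ones, with medians of -0.33 and -0.23. Over all genes tested 43.5% had a positive difference and the median was -0.12. Quantile normalization moved that median to 0.04, and the list medians were then 0.34 for the immune, -0.32 for the constitutive 20S and -0.11 for the 19S genes. The spread of each list's median level between libraries of a group was larger, at 0.73 for the immune, 0.72 for the constitutive 20S and 0.42 for the 19S genes (SD). Without FM 2 the constitutive 20S and 19S medians were 0.05 and 0.21. In 0 of the 47 genes was every FMC value above both FM values, which held for 4.34% of all genes, and in 1, Psmd12, every FMC value was below them, which held for 8.22%.

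**Figure D1:**
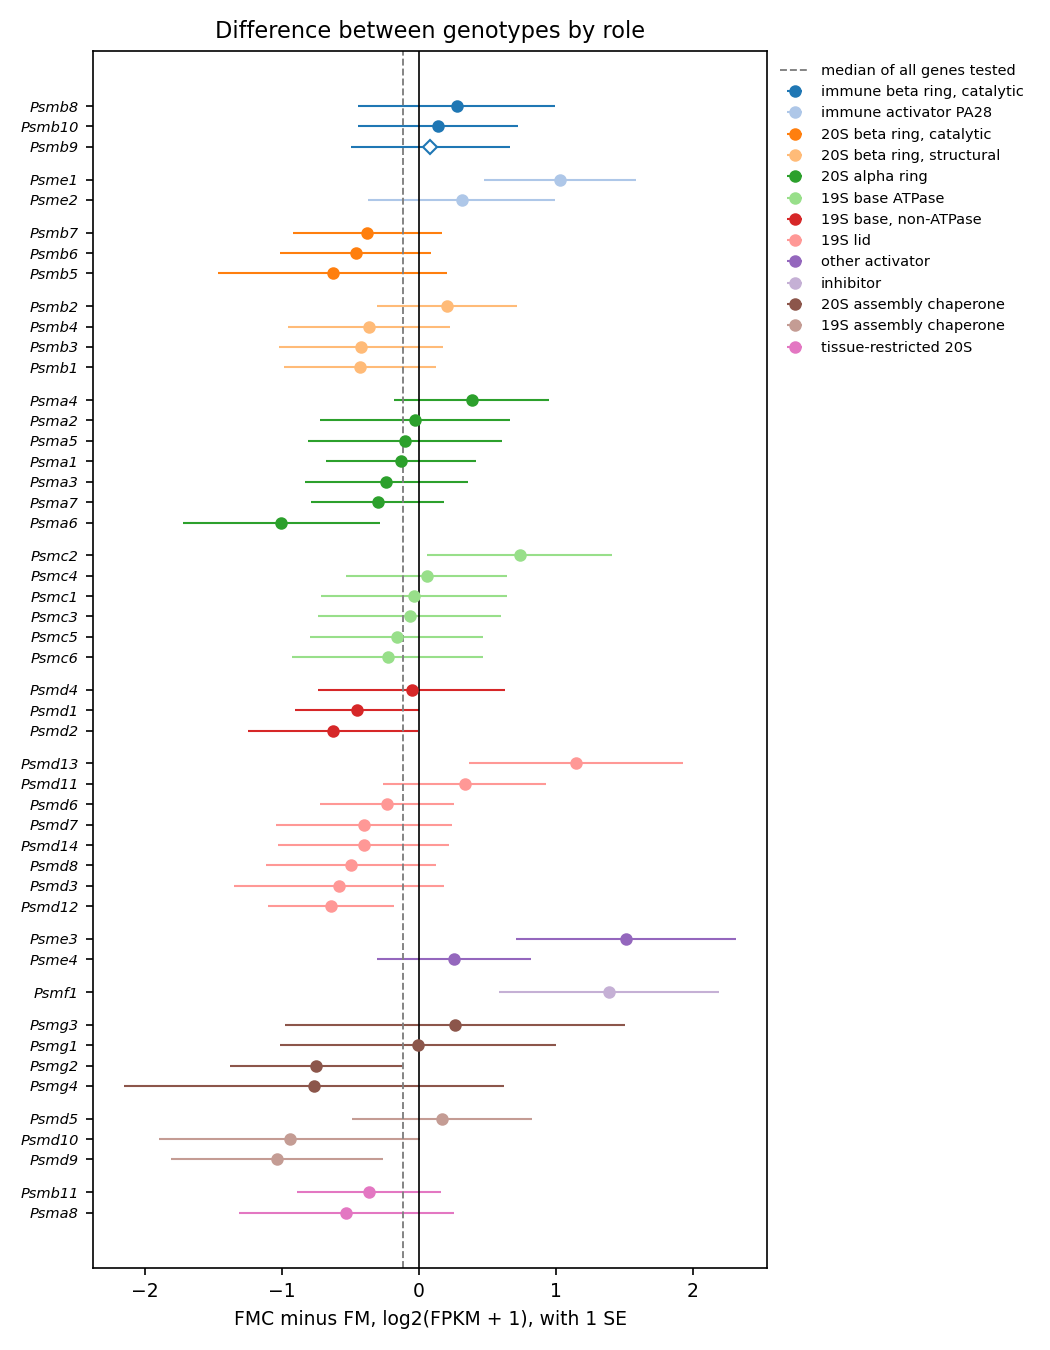
Difference between FMC and FM for each proteasome gene on the log2(FPKM + 1) scale (points, with bars of 1 SE), grouped and coloured by role; the dashed line is the median of all genes tested, -0.12. The 5 immune genes lie right of 0, the open diamond marks Psmb9 as fitted on 5 libraries, and the difference of Psme3 is the highest at 1.51.

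Psmb8 (ENSMUSG00000024338), the immune counterpart of the chymotrypsin-like subunit, measured 26.8 and 145 FPKM in FM 1 and FM 2. The FMC values, here and below in the order FMC 1 to FMC 4, were 59.5, 76.0, 50.2 and 149 FPKM. FM 1 was the lowest library and FM 2 stood close to FMC 4 at the top, so the groups overlapped. The difference was 0.28 ± 0.72 (log2, SE). It was negative without FM 1 (-0.92) and without FMC 4 (-0.04).

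Psmb9 (ENSMUSG00000024337), the immune counterpart of the caspase-like subunit, had FM values of 28.9 and 52.2 FPKM and FMC values of 60.7, 24.9 and 46.3 FPKM (FMC 1 to FMC 3). The table has no value for it in FMC 4, so it was not in the fit of all 6 libraries. In a fit on the 5 libraries with a value, added after the data were seen, its difference was 0.09 ± 0.58 (log2, SE). The gene lies on chromosome 17 from 34318932 to 34324697 in mm9. The 200 bases with the highest coordinates overlap the gene model of Tap1 (34324498 to 34334170), which is transcribed the other way and also has no value in FMC 4. In all, 352 genes have no value in FMC 4, of which 332 have none in any library. Psmb8 follows 495 bases further on, from 34334666 to 34338399, and does have a value in FMC 4.

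Psmb10 (ENSMUSG00000031897, chromosome 8 from 108459628 to 108462292), the immune counterpart of the trypsin-like subunit, had FM values of 42.3 and 46.0 FPKM and FMC values of 53.6, 35.8, 27.7 and 106 FPKM. Both FM libraries lay inside the FMC range, and FMC 4 was the highest library. The difference was 0.14 ± 0.58 (log2, SE), and -0.22 without FMC 4.

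Psme1 (ENSMUSG00000022216), which encodes the alpha subunit of the PA28 cap, had the largest difference of the immune genes. Its FM values were 91.1 and 177 FPKM and its FMC values 397, 160.1, 204 and 358 FPKM. FMC 2 lay below FM 2, and the other 3 FMC libraries exceeded both FM values. The means were 134 ± 61 FPKM (SD, n = 2) and 279.9 ± 115 FPKM (SD, n = 4). The difference of 1.03 ± 0.55 (log2, SE), a fold of 2.05, did not pass in limma (adjusted p = 0.993). With 1 library left out it ran from 0.56 to 1.51.

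Psme2 (ENSMUSG00000079197) encodes the beta subunit of the same cap and lies 5911 bases after Psme1 on chromosome 14 (56196960 to 56200366 and 56206278 to 56209950, mm9). Its FM values were 97.5 and 296 FPKM and its FMC values 264, 112, 152 and 446 FPKM. FM 1 was again the lowest and FM 2 the second highest, and the difference was 0.31 ± 0.68 (log2, SE). It was -0.48 without FM 1 and -0.04 without FMC 4. The pseudogene Psme2b-ps was listed at 53.6 to 203 FPKM, in a different order of libraries, so reads may be split between the copies and the level of Psme2 is uncertain. The subunits of the PA28 ring are made from both genes, and the FPKM of Psme1 exceeded that of Psme2 in 3 of 6 libraries.

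Without FM 1 the median difference of the tested immune genes was -0.20, without FMC 4 it was -0.04, and without FM 2 it was 1.29. Sample titles place FMC 2 a day from FM 1 and FMC 3 a day from FM 2. Over the immune genes the median difference within these pairs was 0.20 for FMC 2 minus FM 1 and -0.71 for FMC 3 minus FM 2. What the title dates stand for is not stated, and the second pair also differs in labelled sex.

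**Figure D2:**
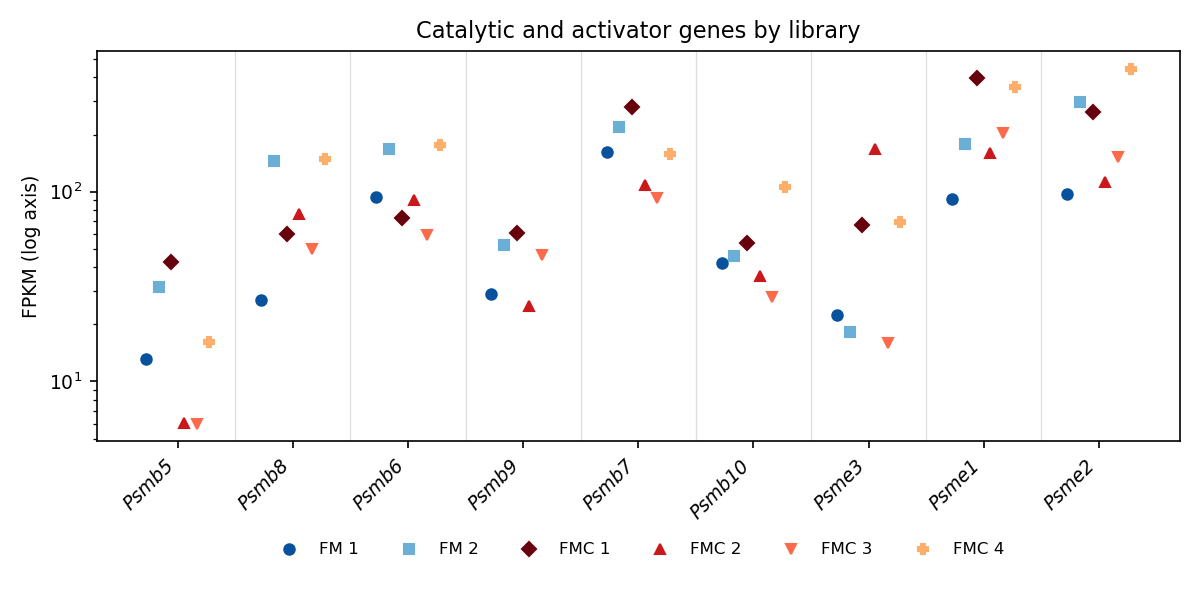
FPKM on a log axis of the catalytic genes Psmb5, Psmb6 and Psmb7 beside their immune counterparts Psmb8, Psmb9 and Psmb10, and of the activators Psme3, Psme1 and Psme2, with 1 symbol per library. Psmb8 lies above Psmb5 in all 6 libraries, Psmb10 lies below Psmb7, and Psmb9 has no point for FMC 4.

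The constitutive catalytic genes all had negative differences that missed the test. Psmb5, for the chymotrypsin-like subunit, had FM values of 13.1 and 31.5 FPKM and FMC values of 42.4, 6.04, 5.99 and 16.2 FPKM (-0.63 ± 0.84, log2, SE). FMC 1 was the highest library and FMC 2 and FMC 3 the lowest, on either side of FM. Psmb6, for the caspase-like subunit, had FM values of 94.3 and 168 FPKM and FMC values of 72.8, 89.9, 59.1 and 177 FPKM (-0.46 ± 0.55). Psmb7, for the trypsin-like subunit, had FM values of 161 and 220.3 FPKM and FMC values of 279.8, 108, 92.3 and 158 FPKM (-0.37 ± 0.54). In all 3 genes the lowest library was FMC 3, and the groups overlapped. Without FM 2 the differences were -0.03, -0.05 and -0.15 for Psmb5, Psmb6 and Psmb7. Their pseudogenes Psmb5-ps, Psmb6-ps and Psmb7-ps2 were at 2.88 FPKM or less in every library.

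Ratios within a library set each immune catalytic subunit against the subunit it replaces. Psmb8 exceeded Psmb5 in 6 of 6 libraries, by 2.05 and 4.61 times in FM and by 1.40, 12.6, 8.38 and 9.20 times in FMC 1 to FMC 4. FMC 1 had the lowest ratio and the other 3 FMC libraries exceeded both FM values. On the log2(FPKM + 1) scale the ratio was 1.58 ± 0.84 (SD, n = 2) in FM and 2.48 ± 1.36 (SD, n = 4) in FMC, a difference of 0.91 (exact two-sided permutation test, p = 0.467). By the row used, Psmb9 lay below Psmb6 in all 5 libraries with a value. It was at 0.306 and 0.311 of Psmb6 in FM and at 0.834, 0.277 and 0.784 of it in FMC 1 to FMC 3. In FMC 1 Psmb6 was at 72.8 FPKM and Psmb9 at 60.7 FPKM, with a further 15.2 FPKM in its second row. The order there depends on whether that row is counted. The log2 ratio by the row used differed by 0.86 (exact two-sided permutation test over 10 splits, p = 0.400, smallest possible 0.1). Psmb10 lay below Psmb7 in 6 of 6 libraries, at 0.263 and 0.209 of it in FM and at 0.191, 0.331, 0.300 and 0.669 of it in FMC, a log2 difference of 0.52 (exact two-sided permutation test, p = 0.400). Psme3 encodes another cap and not a subunit that is replaced. Against Psme3 the log2 ratio of Psme1 differed by -0.48 (exact two-sided permutation test, p = 0.800). That of Psme2 differed by -1.20 (exact two-sided permutation test, p = 0.467). Psme1 and Psme2 themselves had positive differences (1.03 and 0.31), and the larger one of Psme3 (1.51) makes both ratio differences negative. Over these 5 ratios the smallest Benjamini-Hochberg adjusted p was 0.584, the design with 15 splits cannot give a p under 0.0667, and the groups overlapped in each. With 1 library left out, the differences ran from 0.31 (without FM 1) to 1.57 (without FMC 1) for Psmb8, from 0.59 (without FMC 1) to 1.37 (without FMC 2) for Psmb9 and from 0.19 (without FMC 4) to 0.79 (without FMC 1) for Psmb10. In FMC 2 against FM 1 the log2 ratios differed by 2.47, -0.14 and 0.34 for Psmb8, Psmb9 and Psmb10, and in FMC 3 against FM 2 by 0.70, 1.32 and 0.53.

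The 14 constitutive 20S genes encode subunits present in equal numbers in a particle without immune subunits, while their transcript levels spanned a wide range. By median over the 6 libraries the highest were Psma3 (257 FPKM), Psma7 (216 FPKM) and Psmb7 (159.8 FPKM). The lowest were Psma2 (9.97 FPKM) and Psmb5 (14.6 FPKM). Neighbours in this order overlapped in range in every case. The next level above Psmb5 was that of Psma1 at 45.3 FPKM, and Psma1 exceeded Psmb5 in 5 of 6 libraries. The immune genes ran from 44.2 FPKM (Psmb10) to 208 FPKM (Psme2) by the same measure. Psmb8 at 67.7 FPKM lay above the medians of the 4 structural beta genes (46.7 to 63.5 FPKM), with overlapping ranges. The 19S genes ran from 7.25 FPKM (Psmd3) to 78.1 FPKM (Psmd14).

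**Figure D3:**
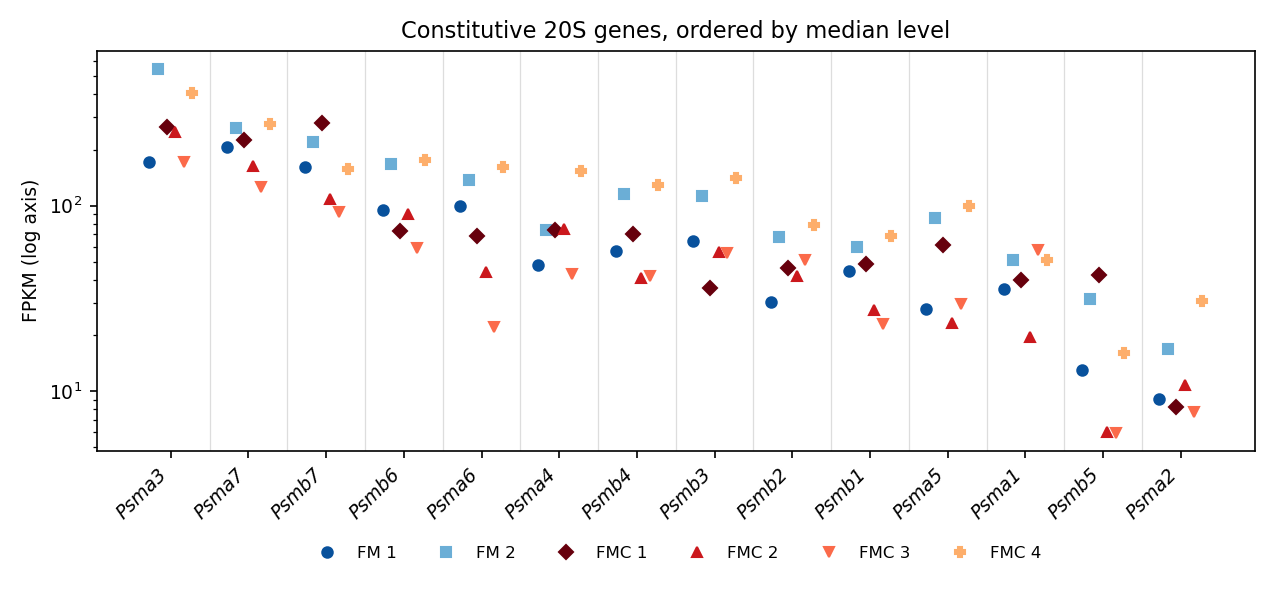
FPKM on a log axis of the 14 constitutive 20S genes, ordered by median over the 6 libraries, with 1 symbol per library. The levels fall from Psma3 (median 257 FPKM) to Psma2 (9.97 FPKM), and FMC 4 is the highest library in 10 of the 14 genes.

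Among the alpha ring genes, 1 of 7 had a positive difference and 0 passed. Psma4, a ring subunit, had FM values of 47.8 and 73.9 FPKM and FMC values of 74.2, 75.3, 42.8 and 154 FPKM (0.39 ± 0.56, log2, SE). Psma6, another ring subunit, had the largest negative difference of the core genes. Its FM values were 99.1 and 137 FPKM and its FMC values 68.3, 44.2, 22.3 and 161 FPKM (-1.002 ± 0.72). FMC 4 exceeded both FM values and the other 3 FMC libraries were below both. The other 5 alpha genes differed by -0.30 to -0.03.

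Of the structural beta genes, 1 of 4 had a positive difference. Psmb2 had FM values of 30.3 and 68.2 FPKM and FMC values of 45.9, 41.7, 51.1 and 79.2 FPKM (0.21 ± 0.51, log2, SE). Its difference was -0.36 without FM 1. Psmb1 had FM values of 44.7 and 60.04 FPKM and FMC values of 48.7, 27.5, 22.9 and 68.4 FPKM (-0.43 ± 0.55). Psmb3 had FM values of 64.3 and 113 FPKM and FMC values of 36.1, 56.3, 55.3 and 141 FPKM (-0.42 ± 0.60). In each of these genes and in Psmb4 the highest library was FMC 4.

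In the 19S base, 2 of the 6 ATPase genes and 0 of the 3 non-ATPase genes had a positive difference. Psmc2, an ATPase of the base, had FM values of 7.18 and 16.3 FPKM and FMC values of 24.0, 12.2, 10.8 and 38.8 FPKM (0.74 ± 0.68, log2, SE). FMC 1 and FMC 4 were above both FM libraries and the other two lay between them. The ATPase gene Psmc4 had FM values of 47.0 and 101 FPKM and FMC values of 83.9, 44.4, 51.4 and 137 FPKM (0.06 ± 0.59). It changed sign without FM 1 (-0.48), without FMC 1 (-0.02) and without FMC 4 (-0.25). Psmd2, which encodes a scaffold that docks substrates and shuttles, had FM values of 23.0 and 62.5 FPKM and FMC values of 29.5, 13.02, 22.1 and 40.4 FPKM (-0.63 ± 0.62), with a difference of 0.08 without FM 2. Psmd1, for the other large scaffold of the base, had FM values of 38.0 and 57.6 FPKM and FMC values of 26.1, 37.2, 38.2 and 36.1 FPKM (-0.45 ± 0.45). FM 2 was the highest library for both scaffold genes. The remaining base genes, among them the ubiquitin receptor gene Psmd4, differed by -0.23 to -0.03.

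In the lid, 2 of 8 genes had a positive difference. Psmd12 (chromosome 11 from 107340798 to 107365676, mm9), a structural lid subunit, was the 1 proteasome gene with groups that did not overlap. Its FM values were 50.0 and 44.7 FPKM and its FMC values 22.9, 33.9, 26.1 and 39.6 FPKM. The means were 47.3 ± 3.7 FPKM (SD, n = 2) and 30.6 ± 7.5 FPKM (SD, n = 4), and the difference of -0.64 ± 0.46 (log2, SE) did not pass in limma (adjusted p = 0.993). Psmd13, another structural lid subunit, had FM values of 10.8 and 17.9 FPKM and FMC values of 10.4, 23.2, 61.3 and 69.8 FPKM (1.15 ± 0.78). FMC 1 was the lowest library there and the other 3 FMC libraries lay above FM. The lid gene Psmd11 had FM values of 33.2 and 31.1 FPKM and FMC values of 26.8, 30.1, 34.8 and 98.1 FPKM (0.34 ± 0.60). FMC 4 stood apart, and the difference was -0.08 without it. Psmd8 had FM values of 16.2 and 28.0 FPKM and FMC values of 7.55, 19.8, 12.3 and 25.7 FPKM (-0.49 ± 0.62). Psmd14, which encodes the deubiquitinase of the lid, ran from 27.3 FPKM (FMC 1) to 127 FPKM (FM 1). With Psmd3, Psmd6 and Psmd7 it made up the rest of the lid, with differences of -0.58 to -0.23. FMC 1 was the lowest library in 6 of the 8 lid genes, against 24.4% of all genes tested, but in 1 of the 6 ATPase genes.

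Of the other caps and the inhibitor, Psme3 and Psmf1 had the highest differences of the family. Psme3 (chromosome 11 from 101177527 to 101184851, mm9), which encodes the nuclear PA28 gamma cap, had FM values of 22.5 and 18.2 FPKM. Its FMC values were 66.4, 168, 16.01 and 69.3 FPKM. FMC 3 was below both FM libraries and the other 3 FMC libraries were above both. The means were 20.4 ± 3.1 FPKM (SD, n = 2) and 79.8 ± 63.4 FPKM (SD, n = 4), and the difference was 1.51 ± 0.80 (log2, SE; limma, adjusted p = 0.993). With 1 library left out it stayed between 1.02 and 2.13.

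Psmf1, which encodes the proteasome inhibitor PI31, had FM values of 0.958 and 10.2 FPKM and FMC values of 11.6, 7.29, 13.1 and 14.3 FPKM. FM 1 was about 1 FPKM while the other 5 libraries were within 7.29 to 14.3 FPKM. The difference was 1.39 ± 0.80 (log2, SE), 2.65 without FM 2 and 0.14 without FM 1. Psme4, for the PA200 cap, had FM values of 26.5 and 34.1 FPKM and FMC values of 27.7, 19.9, 56.8 and 53.7 FPKM (0.26 ± 0.56).

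Among the assembly chaperone genes 2 of 7 had a positive difference. Psmg3, a chaperone of alpha ring assembly, had FM values of 0.644 and 24.1 FPKM and FMC values of 2.18, 3.85, 6.67 and 29.1 FPKM (0.27 ± 1.24, log2, SE), and its difference was -1.70 without FM 1 and -0.39 without FMC 4. Psmg2, part of an alpha ring chaperone pair, had FM values of 19.3 and 23.1 FPKM and FMC values of 10.2, 5.83, 23.7 and 15.0 FPKM (-0.75 ± 0.63). Psmg4, the partner of Psmg3, ranged most, from 0.200 FPKM in FMC 3 to 63.05 FPKM in FMC 2. Psmg1, the partner of Psmg2, ran from 1.62 FPKM in FMC 3 to 33.3 FPKM in FMC 2. Of the chaperones of the 19S base, Psmd9 had FM values of 4.78 and 2.49 FPKM and FMC values of 0.513, 0.266, 2.86 and 2.11 FPKM (-1.04 ± 0.77). Psmd5 varied least of all proteasome genes, by 1.56 times between its lowest library (FM 2, 4.53 FPKM) and its highest (FMC 1, 7.07 FPKM), with a difference of 0.17 ± 0.66 and of -0.01 without FM 2. The median of that range over the 47 genes was 4.24 times. Psmd10, or gankyrin, ran from 2.65 FPKM in FMC 1 to 39.1 FPKM in FMC 4.

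The tissue-restricted core genes were near the bottom. Psma8, an alpha subunit of the testis, had FM values of 1.64 and 4.28 FPKM and FMC values of 2.29, 3.73, 0.620 and 0.781 FPKM (-0.53 ± 0.79, log2, SE). Psmb11, the beta subunit of thymic cortical epithelium, had FM values of 0.453 and 1.53 FPKM and FMC values of 1.008, 0.0302, 0.347 and 0.770 FPKM. Both were highest in FM 2.

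Libraries of the same genotype lay far apart across the family. FMC 4 was the highest library in 23 of the 47 genes (48.9%), against 20.7% of all genes tested and 24.7% of the 9880 tested genes with a mean of at least 5 FPKM. It was the lowest library in 0 of the 47, against 8.49% of all. The median log2(FPKM + 1) of the constitutive 20S genes was 5.73 and 6.63 in FM 1 and FM 2 and 6.04, 5.46, 5.58 and 7.09 in FMC 1 to FMC 4. FM 2 and FMC 4 were the 2 highest libraries of this list. The 19S medians were 4.58 and 5.27 in FM and 4.82, 4.36, 4.76 and 5.34 in FMC, again highest in those 2 libraries. FM 2 was also the highest library in 10 of the 12 microglial markers, against 23.1% of all genes tested. Within the pairs with adjacent title dates the constitutive 20S median difference was -0.29 (FMC 2 minus FM 1) and -1.30 (FMC 3 minus FM 2), while the medians of all genes tested were -0.05 and -0.32.

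**Figure D4:**
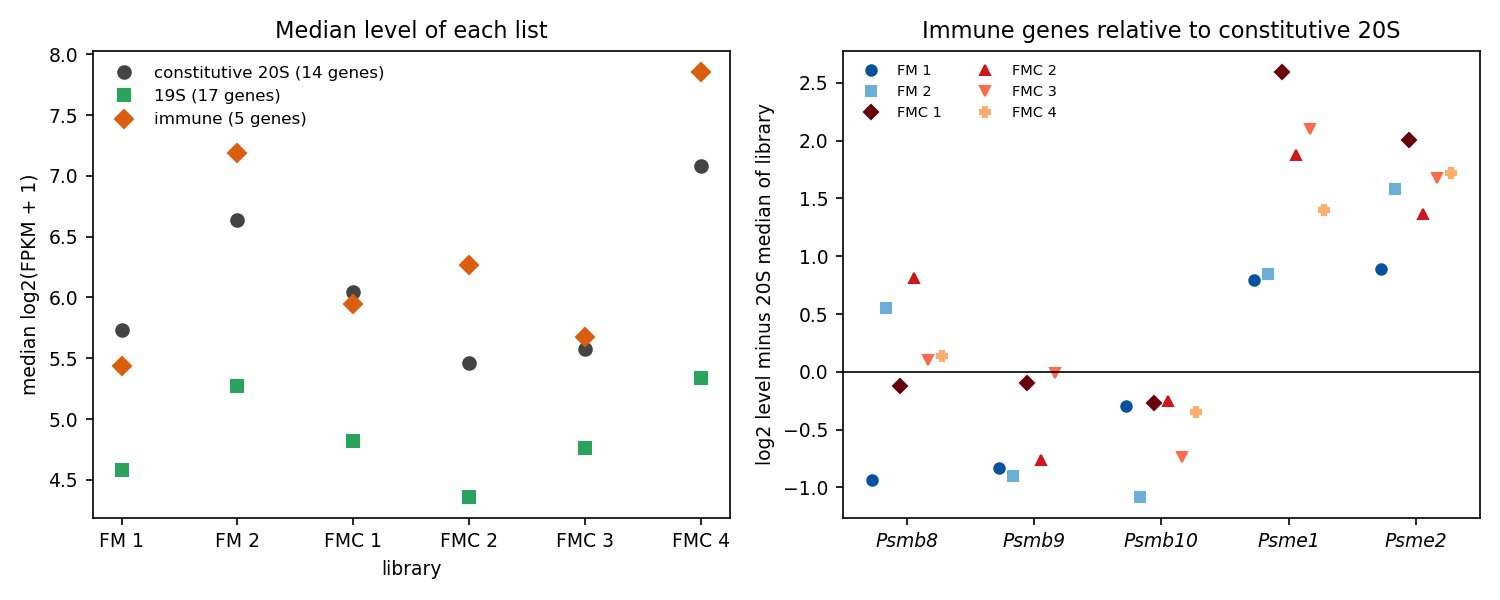
Left, median log2(FPKM + 1) of the constitutive 20S, 19S and immune genes in each library (the immune median of FMC 4 is without Psmb9). Right, log2 level of each immune gene minus the constitutive 20S median of the same library; all FMC points of Psme1 and Psmb9 lie above both FM points, and the other 3 genes overlap.

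FMC 4 was the highest library in 10 of the 14 constitutive 20S genes, against 20.7% of all genes tested. FMC 3 was the lowest in 9 of the 14, against 17.1% of all. Each library was also centred on its median over the 14 constitutive 20S genes, a scale chosen after the data were seen and used without a test. Relative to that median all 5 immune genes had a positive difference, from 0.28 (Psmb10) to 1.17 (Psme1), with a median of 0.45, against 51.1% of all genes with a positive difference on this scale. Psme1 stood 0.80 and 0.84 above the core median in FM and 2.59, 1.87, 2.10 and 1.40 above it in FMC 1 to FMC 4. Psmb9 stood at -0.83 and -0.90 in FM and at -0.10, -0.76 and -0.01 in FMC 1 to FMC 3. In Psme1 all 4 FMC libraries exceeded both FM values, which held for 3.50% of all genes. In Psmb9 the 3 FMC libraries with a value did, and FMC 1 to FMC 3 exceeded both FM values in 13.2% of all genes. None of the 5 had every FMC value below FM, which held for 5.10% of all genes on this scale. Psmb8 stood at -0.93 and 0.56 in FM and between -0.12 and 0.81 in FMC, so its groups overlapped. Of the 17 19S genes 7 had a positive difference, with a median of -0.08, and Psmc2 alone lay above FM in all FMC libraries. The T cell and monocyte marker sums of all FMC libraries were above those of FM and the border macrophage sums below. Only 2 of the 4 tested monocyte markers had a positive difference. The part of these cells in the relative levels was not tested.

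Genes that work with the proteasome gave no call either (0 of 35 tested in 3 lists). Of the shuttles and cofactors 10 of 19 had a positive difference, with a median of 0.08. Nploc4, a cofactor that brings substrates from membranes, had FM values of 7.87 and 3.34 FPKM and FMC values of 17.6, 6.58, 18.3 and 15.8 FPKM (1.24 ± 0.67, log2, SE). The shuttle Rad23b differed by 0.58 ± 0.54 (0.05 without FM 1), the shuttle Ubqln1 by -0.67 ± 0.66 and Shfm1, a small lid subunit outside the symbol rule, by -0.82 ± 0.95.

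Among the transcription factors of the subunit genes, 4 of 5 tested had a positive difference, with a median of 0.82. Nlrc5, the activator of MHC class I genes, had FM values of 2.80 and 6.23 FPKM and FMC values of 11.3, 13.5 and 23.7 FPKM (FMC 1, FMC 2 and FMC 4), with no value in FMC 3 (1.64 ± 0.70 in a fit on 5 libraries, log2, SE; limma, adjusted p = 0.908). Irf1, which binds interferon response elements, had FM values of 8.48 and 5.38 FPKM and FMC values of 12.2, 6.70, 9.36 and 47.5 FPKM (0.95 ± 0.80). FMC 4 was the highest library for Nlrc5 and Irf1, as it was for Psmb8, Psmb10 and Psme2, while Psme1 was highest in FMC 1. It was also the highest in 10 of the 14 constitutive 20S genes and in 20.7% of all genes tested. Nfe2l1, which restores proteasome genes when the protease is blocked, differed by 0.82 ± 0.64 (0.15 without FM 1), and Ddi2, the protease that activates it, by -0.0011 ± 0.76.

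Of the genes that handle peptides after the proteasome, 5 of 11 tested had a positive difference, with a median of -0.08. Tap1, a peptide transporter subunit that shares its start region with Psmb9, had FM values of 21.3 and 23.6 FPKM and FMC values of 32.3, 21.4 and 65.1 FPKM in FMC 1 to FMC 3. Its difference was 0.64 ± 0.61 in a fit on 5 libraries (log2, SE). Tap2, its partner, had FM values of 4.20 and 6.61 FPKM and FMC values of 4.44, 5.93, 11.4 and 9.75 FPKM (0.42 ± 0.68). The peptide editor gene Tapbpl differed by 1.06 ± 0.78 (0.22 without FM 1), its relative Tapbp by -0.68 ± 0.65, and the trimming peptidase gene Erap1 by 0.42 ± 0.55 (-0.08 without FM 1). Tpp2, a cytosolic peptidase, had FM values of 45.6 and 45.7 FPKM and FMC values of 29.4 to 42.7 FPKM (-0.30 ± 0.43). Every FMC value was below FM, in this 1 of the 11 tested genes and in 8.22% of all genes.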

How the data were processed

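The authors deposited FPKM values per Ensembl gene for each of the 6 libraries. The submitters' processing notes list Cufflinks 2.0.2, Bowtie2 2.0.0, TopHat2 2.0.4, CASAVA 1.8.2 and build mm9; roles, settings and strand are not given in the sources used here. Per the labels' protocols, cells were enriched on Percoll and sorted, and RNA was extracted with TRIzol and turned into cDNA by the Ovation method for paired-end sequencing. Positions are those of the table (mm9, counted from 1); promoter positions are of GRCm38.p6 and were not mixed with them.

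Values were tested as log2(FPKM + 1), a scale that understates changes of low genes, with limma 3.58.1 in R 4.3.3 (intensity trend, two-sided, Benjamini-Hochberg, threshold 0.05). Genes that lack a value in any library (426 of 37447) were left out, and 18208 reached 1 FPKM in at least 2 libraries. Where an FM library is omitted, the remaining one is taken to vary as the FMC libraries do. The fit was tested on simulated data.

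Genes are given by library where they are immune subunits, their counterparts or Psme3, and otherwise where they have the 2 smallest p in each direction in a role group or pathway list. The members and lists were chosen with earlier results of these data known. Paaf1, Irf8 and Spi1 of those lists, and Chil3 of the markers, were not analysed here. A further gene of the transcription factor list is not reported here. Other settings tried were quantile normalization, median ratio scaling, a pseudocount of 0.1, a floor of 5 FPKM on the mean, no floor, no trend, a term for sex, a replicate block, a block of adjacent title dates, and leaving out each library. Keeping genes with a missing value and centring on the 20S median were added after the data were seen.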

Additional observations from a re-analysis of the deposited data

Results flagged for a closer look

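In the 4 FMC libraries 2 of 49 sets of values held a library far from the others, where chance flags about 1 set in 20. Psmd1, a scaffold of the 19S base, was at 26.1 FPKM in FMC 1, apart from 36.1 to 38.2 FPKM in the other FMC libraries. Psmd3, a lid subunit, was at 22.3 FPKM in FMC 4, apart from 4.61 to 5.12 FPKM in the other FMC libraries.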

How the results depend on the processing

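No proteasome gene was called in any alternative, and none of the named genes was (smallest adjusted p = 0.741). The count of all genes called, 5, became 0 with no filter, with a mean of at least 5 FPKM, with sex as a covariate and with the replicate block, 1 with a pseudocount of 0.1, 3 with the date pair block and 10 with no intensity trend, and ran from 0 to 8 with 1 library left out. With 1 library left out the median difference ran from -0.20 to 1.29 for the immune genes, from -0.45 to 0.21 for the 19S genes and from -0.73 to 0.05 for the constitutive 20S genes. With the date pair block the immune median was -0.20. FMC 1 and FMC 4 have no partner in that block, so its differences rest on FMC 2 with FM 1 and FMC 3 with FM 2 only. In the replicate block FMC 3 and FMC 4 have no partner, so its differences rest on FMC 1 with FM 1 and FMC 2 with FM 2 only. Among named genes the sign changed with the date pair block for Psma4 (-0.065), Psmb10 (-0.47), Psmb8 (-0.021), Psmc4 (-0.52), Psme2 (-0.38) and Psmg3 (-0.076). It changed with the replicate block for Psma8 (0.079), Psmb10 (-0.0098), Psmb2 (-0.056), Psmc4 (-0.17), Psmd11 (-0.17), Psme4 (-0.34), Psmg3 (-0.71) and Tap2 (-0.035), and for Ddi2 with median ratio scaling (0.078) and quantile normalization (0.21). With 1 library left out the ranges that crossed 0 were -0.22 to 0.41 for Psmb10, -0.36 to 0.78 for Psmb2, -0.92 to 1.47 for Psmb8, -0.48 to 0.60 for Psmc4, -0.078 to 0.53 for Psmd11, -1.33 to 0.078 for Psmd2, -0.013 to 0.36 for Psmd5, -0.48 to 1.11 for Psme2, -1.70 to 2.23 for Psmg3, -0.23 to 0.23 for Ddi2 and -0.079 to 0.91 for Erap1. The cause was not tested. Deviations from the group means correlated by 0.03 for replicate number 1 and -0.06 for number 2. For the adjacent title dates they correlated by 0.06 (FMC 2 with FM 1) and -0.07 (FMC 3 with FM 2). With 2 FM libraries the deviations of FM 1 and FM 2 are mirror images, so these values cannot show whether libraries are paired. With the replicate block the immune median was 0.06 and the 19S median -0.54. In 37 of 41 named genes leaving out 1 library moved the difference by over 1.5 times; Psmd12, Psmd13 and Psme3 were among the others. The 3 catalytic ratios kept their sign in every alternative run, but with the replicate block they were 0.39 for Psmb8, 0.63 for Psmb9 and 0.10 for Psmb10, and quantile normalization could not be run for Psmb9, which lacks a value.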
